A study of Mus musculus with 2 samples.

Results

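Adipocyte nuclei are described here as the nuclei of mouse epididymal fat that were selected on 10 lipid storage genes. A nucleus was a member when Plin1, Plin4, Cidec, Acsl1, Pparg, Tshr, Adrb3, Gpam, Ghr and Acvr1c together held at least 1.5% of its unique molecular identifiers (UMIs, each counting 1 captured RNA molecule) and at least 20 UMIs. The rule was applied to barcodes with at least 500 UMIs, more than 400 detected genes and less than 0.5% mitochondrial UMIs, with no upper limit on depth. It found 1635 members among 16477 filtered barcodes of both libraries. Of these, 306 of 8618 came from the HF-PBS library and 1329 of 7859 from the HF-HHT library.

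Both libraries came from epididymal white adipose tissue of male C57BL/6N mice that were 8 weeks old at the start and received a high-fat diet throughout (HF). After 6 weeks of this diet, the mice were injected intraperitoneally 3 times a week for 8 weeks with vehicle (HF-PBS, the library labelled CTRL) or with homoharringtonine (HF-HHT, the library labelled HHT). Homoharringtonine, an alkaloid from plum yew trees, stops ribosomes from elongating new proteins. Fat pads of 3 mice were pooled into 1 library per condition, and nuclei were isolated from frozen tissue, stained with DAPI, sorted and counted by droplet 3' RNA sequencing. With 1 library per condition, no difference has a replicate check and no test between conditions could be made. All intervals are exact 95% intervals and cover counting error only. A gene was called higher or lower when its CPM, the UMIs summed over the members of a library and scaled to a common total, differed by at least 1.5-fold.

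White adipocytes store triglyceride in a single large droplet, coat it with perilipin and CIDE proteins, and release fatty acids by lipolysis when catecholamines raise cAMP. They also secrete hormones such as leptin and adiponectin, and their gene programme is set up by the nuclear receptor encoded by Pparg. Large lipid-filled adipocytes break in single-cell preparations, and therefore nuclei are commonly sequenced in their place.

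The libraries held 76197757 UMIs (HF-PBS) and 73313558 UMIs (HF-HHT) in all barcodes, and the members held 7331729 and 23551243 of them. Members were far deeper than the remaining filtered barcodes. In HF-PBS their UMIs ran from 839 to 75207 (median 20657), and in HF-HHT from 721 to 79441 (median 14984). The other filtered barcodes had medians of 3914 and 3303 UMIs. Within their own library, 157 and 349 of the members exceeded the 95th percentile of depth. No member barcode occurred in both libraries, while 20 of the filtered barcodes did. Free RNA was read from barcodes too shallow to hold a nucleus, and the upper estimate of its share of the members' UMIs was 7.95% and 8.57%.

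The HF-PBS members made up 3.55% of filtered barcodes (3.17 to 3.96), and the HF-HHT members 16.9% (16.1 to 17.8), a 4.76-fold higher share. This share depends on the genes the rule used. Those 10 genes summed to 29499 CPM in HF-PBS members and 36345 CPM in HF-HHT members, against 717 and 1052 CPM in macrophage-marked nuclei and 1566 and 1597 CPM in stromal-marked nuclei. Nuclei of these 2 classes were filtered barcodes outside the rule with at least 0.5% and 10 UMIs of macrophage or stromal precursor markers. In free RNA the 10 rule genes summed to 2861 CPM for HF-PBS and 9492 CPM for HF-HHT. The part of free RNA in the share of members was not tested. In the members, Ghr, the growth hormone receptor, alone gave 21584 and 25536 CPM. Cidec, which fuses lipid droplets, was lower in HF-HHT (2869 against 1904 CPM, log2 ratio of HF-HHT over HF-PBS -0.59). Plin1, the perilipin that guards the droplet surface, was higher (247 against 599 CPM, log2 ratio 1.28). The receptor genes of the rule were higher too, with Adrb3, the beta3-adrenergic receptor, at 52.8 and 246 CPM, Tshr, the thyrotropin receptor, at 427 and 1243 CPM, and Acvr1c, the activin receptor ALK7, at 231 and 1033 CPM. Pparg stood at 1833 and 2163 CPM.

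Near the threshold, 40 HF-PBS and 104 HF-HHT members had rule genes at 1.5 to 2% of their UMIs, and 36 and 55 barcodes lay just below, at 1 to 1.5%. Adipocyte markers outside the rule summed to 14025 and 14608 CPM just inside, and to 12767 and 13402 CPM just outside. Macrophage markers summed to 699 and 614 CPM just inside and to 1077 and 1179 CPM just outside. Barcodes on both sides of the threshold thus carried adipocyte markers at similar levels.

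The label was checked with 15 adipocyte markers that the rule did not use. Their summed level was 12938 CPM in HF-PBS members and 18334 CPM in HF-HHT members, and none of the 15 was at 0. The same markers summed to 4691 and 3084 CPM in macrophage-marked nuclei, which express Cd36 (3495 and 1697 CPM), and to 1122 and 1305 CPM in stromal-marked nuclei. Among them, Adipoq, the gene of adiponectin, had 66.8 and 161 CPM (log2 ratio 1.27). Lipoprotein lipase (Lpl) had 470 and 1001 CPM and the fatty acid carrier Fabp4 had 1129 and 1699 CPM. Lep, the gene of leptin, went the other way, with 551 CPM in HF-PBS against 273 CPM in HF-HHT (log2 ratio -1.01). The fatty acid transporter Cd36 stood at 2521 and 2418 CPM.

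Markers of other cells were present at low levels and differed between the libraries. In HF-PBS and HF-HHT members respectively, 14 macrophage markers summed to 510 and 264 CPM, stromal markers to 748 and 356 CPM, and perivascular markers to 208 and 62.0 CPM. The same macrophage markers reached 10170 and 9272 CPM in macrophage-marked nuclei. B cell markers summed to 64.5 and 10.8 CPM, T and NK cell markers to 38.2 and 22.8 CPM, endothelial markers to 25.9 and 36.3 CPM and mesothelial markers to 11.5 and 18.6 CPM. Markers of dividing cells summed to 10.6 and 22.8 CPM, and those of duct-like epithelium to 229 and 180 CPM. Adgrg2 alone gave 225 and 118 CPM of the duct-like list, and Acta2 gave 162 and 41.7 CPM of the perivascular list. Free RNA held the duct-like list at 40.2 and 572 CPM and the perivascular list at 114 and 75.7 CPM. Whether Adgrg2 and Acta2 are expressed by the members themselves was not tested. Erythroid markers were higher in HF-HHT, at 15.8 and 155 CPM, and free RNA held them at 30.7 and 1804 CPM. Among markers of other cells, 1 of 10 T and NK cell markers, 2 of 8 perivascular, 3 of 8 erythroid and 2 of 8 duct-like epithelial markers were at 0 in HF-PBS members, and none was at 0 in HF-HHT members. At least 0.1% macrophage marker UMIs were found in 37 of the HF-PBS members (12.1%) and 82 of the HF-HHT members (6.17%). At least 0.1% of the markers of any other class, perivascular included and duct-like epithelium left out, were found in 88 and 170 members. The part of these markers in the results that follow was not tested beyond the values given without such nuclei.

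**Figure D1:**
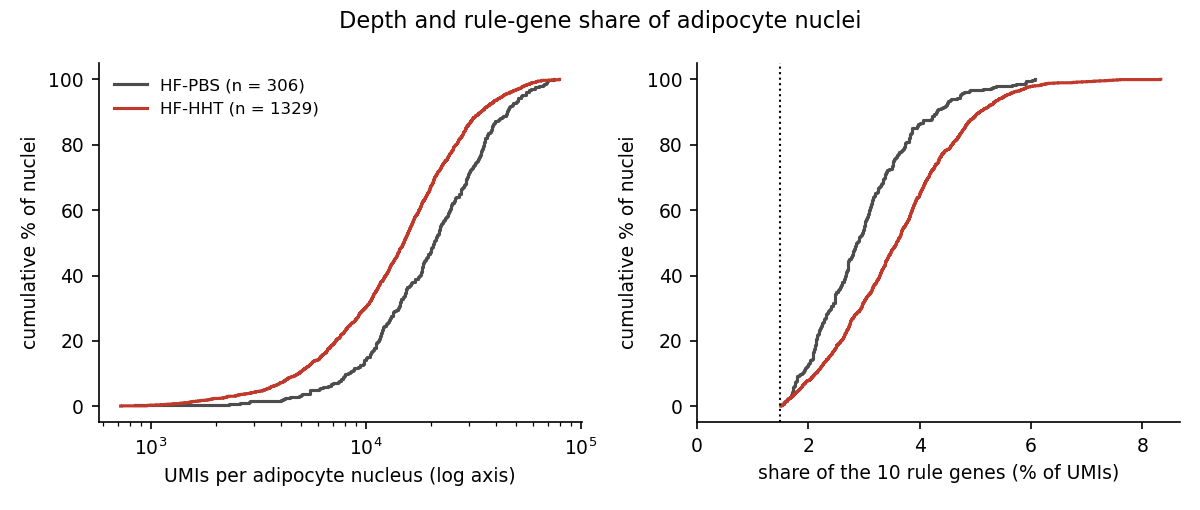
Cumulative share of the adipocyte nuclei of each library (vertical axes, percent) against UMIs per nucleus on a log axis (left) and against the share of UMIs in the 10 rule genes (right, the dotted line marking 1.5%). The HF-HHT curve lies to the left for depth, with medians of 14984 against 20657 UMIs, and to the right for the rule genes, with medians of 3.59% against 2.87%.

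Across the transcriptome, 14996 genes were measured in members, meaning at least 20 UMIs over both libraries. HF-HHT had 5626 of them (37.5%) higher and 1648 (11%) lower, and the median log2 ratio was 0.34. The split depended on the scaling. With TMM factors 4006 genes were higher and 2650 lower around a median of 0.05, and with median-of-ratios size factors 3847 were higher and 2822 lower around a median of 0.01. Each group of genes is therefore read against the median of all measured genes and against the background shares of 37.5% and 11%.

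Nrg4, which encodes an adipocyte-secreted ligand of the receptor tyrosine kinase ErbB4, gave one of the widest differences. The gene lies at chr9:55220222-55326844 on the minus strand (GRCm38, GENCODE vM21). It was counted 334 times in HF-PBS members (45.6 CPM, 40.8 to 50.7) and 17701 times in HF-HHT members (752 CPM, 741 to 763), a log2 ratio of 4.04 (3.89 to 4.20). With all UMIs, 122 of 306 HF-PBS members (39.9%) and 1180 of 1329 HF-HHT members (88.8%) held an Nrg4 UMI. After every nucleus was thinned to 3000 UMIs, which left out 5 and 57 shallower members, these were 41 of 301 (13.6%, 9.96 to 18.0) and 910 of 1272 (71.5%, 69.0 to 74.0). Thinned the same way, Nrg4 was found in 3.97% and 7.79% of macrophage-marked nuclei (unthinned 6.85% and 11.1%, median depths 4595 and 4122 UMIs) and in 0.513% and 4.36% of stromal-marked nuclei (unthinned 0.873% and 6.86%, median depths 6219 and 4104 UMIs). In both libraries the members thus had the highest share of the 3 classes.

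The number of Nrg4 molecules per positive nucleus differed as well. The median Nrg4 count of positive nuclei was 2 UMIs for HF-PBS and 9 for HF-HHT, and 4 and 589 nuclei held at least 10. The share grew with depth, so that it was 18.2% of 11 HF-PBS members with 500 to 5000 UMIs and 51.7% of 89 members with more than 30000. In HF-HHT it was 63.1% of 141 and 93.4% of 183 members at those depths. At every depth compared the HF-HHT level was higher, with 31.1 to 56.1 CPM over the depth classes of HF-PBS and 570 to 972 CPM over those of HF-HHT.

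**Figure D2:**
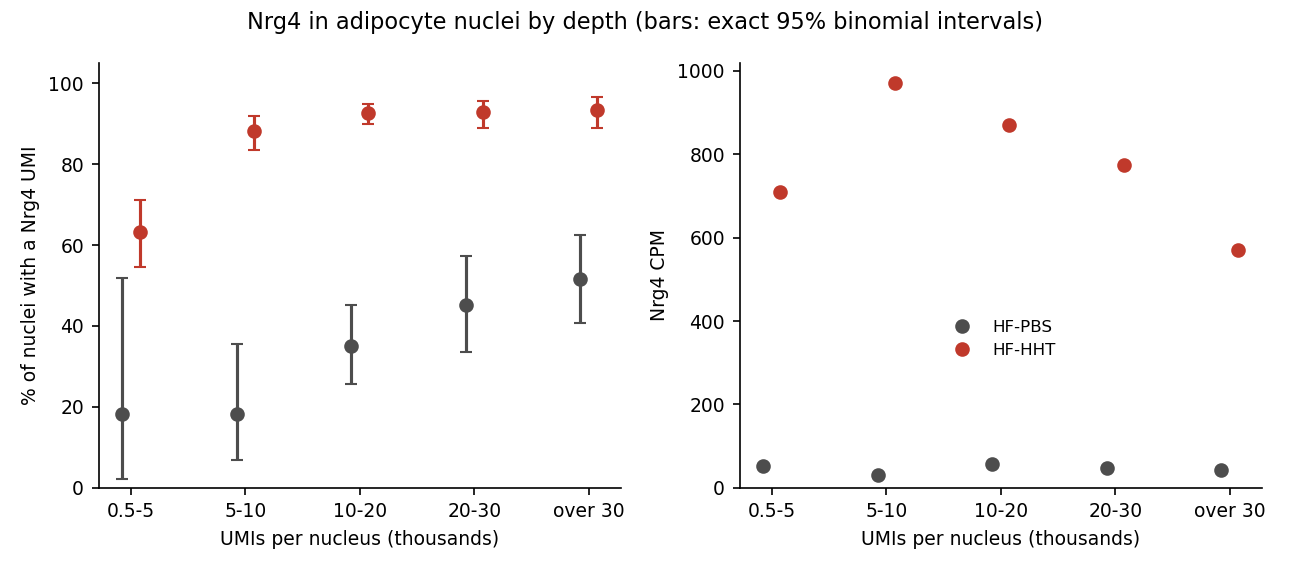
Nrg4 in adipocyte nuclei by UMIs per nucleus, as the percent of nuclei with an Nrg4 UMI (left, bars giving exact 95% intervals) and as CPM (right), for HF-PBS (grey) and HF-HHT (red). The HF-HHT share is above the HF-PBS share in each depth class, from 63.1% against 18.2% among the shallowest members to 93.4% against 51.7% among the deepest.

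Other genes among those with the highest ratios are given next. Igf1, the growth factor of the growth hormone axis, stood at 88.7 CPM in HF-PBS against 940 CPM in HF-HHT (log2 ratio 3.41, 3.29 to 3.52). The complement gene C2 had 7.64 and 154 CPM (4.34), with 19.6% of its 56 HF-PBS UMIs in 1 nucleus. Art3, an ADP-ribosyltransferase family gene, had 66.4 and 787 CPM (3.57). Phkg1, the catalytic chain of phosphorylase kinase, which promotes glycogen breakdown, had 9.27 and 107 CPM (3.53), and Adhfe1, a mitochondrial transhydrogenase, had 30.7 and 284 CPM (3.21). The transporter gene Slc6a13 (9.14 and 142 CPM, 3.95), the short-chain fatty acid receptor Ffar2 (4.64 and 41.1 CPM, 3.15), Scel (4.91 and 60.5 CPM, 3.62), Olfml1 (13.4 and 133 CPM, 3.32) and Tpte (1.64 and 20.4 CPM, 3.64) were low in HF-PBS. Gnal, the G protein subunit that couples receptors to adenylyl cyclase, had 8.73 and 99.7 CPM (3.51), but 35.9% of its HF-PBS UMIs were in 1 nucleus.

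The share of thinned nuclei with a UMI was also higher for these genes. An Art3 UMI was found in 14.6% of HF-PBS members and 77.5% of HF-HHT members. Igf1 was found in 16.9% and 81.4%, and Nnat, the imprinted gene of neuronatin, in 16.3% and 65.3%. Ankef1 was found in 45.8% and 92.5%, and Nabp1, which binds single-stranded DNA, in 16.3% and 68.9%. Adipor2, a receptor for adiponectin, had 473 and 2116 CPM (log2 ratio 2.16) and was found in 56.5% and 98.0% of thinned members. Of the 18 genes that the study marked as differing in adipocytes, all 9 marked for each library were at least 1.5-fold higher in that library, but that list was chosen on these samples and is not independent.

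Fam129b had one of the lowest ratios. It stood at 1016 CPM in HF-PBS against 46.0 CPM in HF-HHT (log2 ratio -4.47, -4.56 to -4.37). The laminin chain gene Lama3 had 371 and 28.2 CPM (-3.72), and Map1b, which binds microtubules, had 712 and 57.1 CPM (-3.64). Fkbp5, a glucocorticoid-induced gene whose product restrains the glucocorticoid receptor, had 2052 and 270 CPM (-2.92, -2.97 to -2.88). The histone methyltransferase gene Setdb2 had 303 and 27.0 CPM (-3.49), the calcium channel gene Orai2 had 58.6 and 6.28 CPM (-3.22), and Tead4, a transcription factor that partners with YAP, had 144 and 17.8 CPM (-3.02). Stxbp6 (373 and 48.5 CPM), Ankrd29 (221 and 29.8 CPM), P2rx5, an ATP-gated channel (31.5 and 4.25 CPM), Ass1, an enzyme of the urea cycle (28.8 and 3.91 CPM), and Kyat1, which transaminates kynurenine (113 and 15.5 CPM), had ratios from -2.94 to -2.86.

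Fewer nuclei held these genes as well. Fkbp5 was found in 97.0% of thinned HF-PBS members and 44.3% of HF-HHT members. Mertk, a receptor that binds apoptotic cells, had 1397 and 132 CPM (log2 ratio -3.41) and was found in 91.7% and 26.9%. Mertk is also a macrophage gene, and its level in macrophage-marked nuclei was 993 and 744 CPM, so that it was above the macrophage level in HF-PBS members and below it in HF-HHT members. Fam129b was found in 77.1% and 9.83% of thinned members, Cyth3, an exchange factor for ARF GTPases, in 84.7% and 29.6%, Tns3, a tensin of focal adhesions, in 86.7% and 37.0%, and the depalmitoylase gene Abhd17b in 78.4% and 29.2%. Stim1, the calcium sensor that opens ORAI channels, had 2258 and 572 CPM (-1.98), and Tns1 had 6263 and 1906 CPM (-1.72).

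The glucocorticoid target list showed the lowest median of the gene groups. Of its 22 measured genes, 14 were lower and 3 higher in HF-HHT (median log2 ratio -1.41) against 0.34 for all genes and a background of 11% lower. Ddit4, an inhibitor of mTORC1, had 36.7 and 3.52 CPM (-3.38). Zbtb16, a zinc finger gene of the list, had 4246 and 1911 CPM (-1.15), and Lpin1, which makes diacylglycerol for triglyceride, had 1262 and 291 CPM (-2.12). Tsc22d3, the gene of the glucocorticoid-induced leucine zipper, which was picked after its values were seen, had 1324 and 217 CPM (-2.61). Nr3c1, the glucocorticoid receptor itself, was higher, with 128 and 315 CPM (1.29).

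Seen per nucleus, the glucocorticoid targets had a median share of 3000 thinned UMIs of 1.13% (HF-PBS) and 0.433% (HF-HHT). The 10th and 90th percentiles were 0.733% and 1.67% for HF-PBS and 0.233% and 0.667% for HF-HHT, and 99.9% of the HF-HHT members lay below the HF-PBS median. This share is a sum on which abundant genes such as Zbtb16 and Fkbp5 weigh most, and the list summed to 11773 and 4424 CPM. Fkbp5 was marked by the study on these samples. The list was lower in HF-HHT outside the members too. In macrophage-marked nuclei 9 of 22 genes were lower (40.9%, against 9.35% of all genes measured there) and 5 higher, with a median of -0.40. In stromal-marked nuclei 11 of 22 were lower (50%, against 8.41%) and 2 higher, with a median of -0.48. Whether these medians differ from that of the members was not tested.

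Genes of adhesion and matrix were lower as well. Among 38 measured genes of adhesion and actomyosin, 14 were lower and 4 higher (median -0.47), and thinned members gave them a median UMI share of 2.07% (HF-PBS) and 1.13% (HF-HHT), with 96.2% of HF-HHT members below the HF-PBS median. This share is a sum that the most abundant genes weigh on most, and the list summed to 21892 and 12080 CPM. Tns1, which the study marked on these samples, is part of it. Among 36 collagen and basement membrane genes, 18 were lower and 6 higher (median -0.64). Col1a1, a fibrillar collagen, had 66.0 and 10.3 CPM (-2.68), and -1.69 once members with at least 0.1% of other cells' markers were removed. Itga6, an integrin subunit, went the other way with 64.8 and 156 CPM (1.26), as did Lamb3, a laminin chain, with 4.50 and 16.9 CPM (1.91). Of the Hippo, YAP and TGF-beta genes, 8 of 32 were lower and 7 higher (8 and 6 of 31 without the rule gene Acvr1c), and Ccn2, a YAP target, had 11.3 and 2.17 CPM (-2.39). Collagen and basement membrane genes were lower outside the members too. In stromal-marked nuclei 17 of 36 were lower (47.2%, against 8.41% of all genes measured there) and 8 higher (median -0.57). In macrophage-marked nuclei 12 of 35 were lower (34.3%, against 9.35%) and 7 higher (median -0.13).

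**Figure D3:**
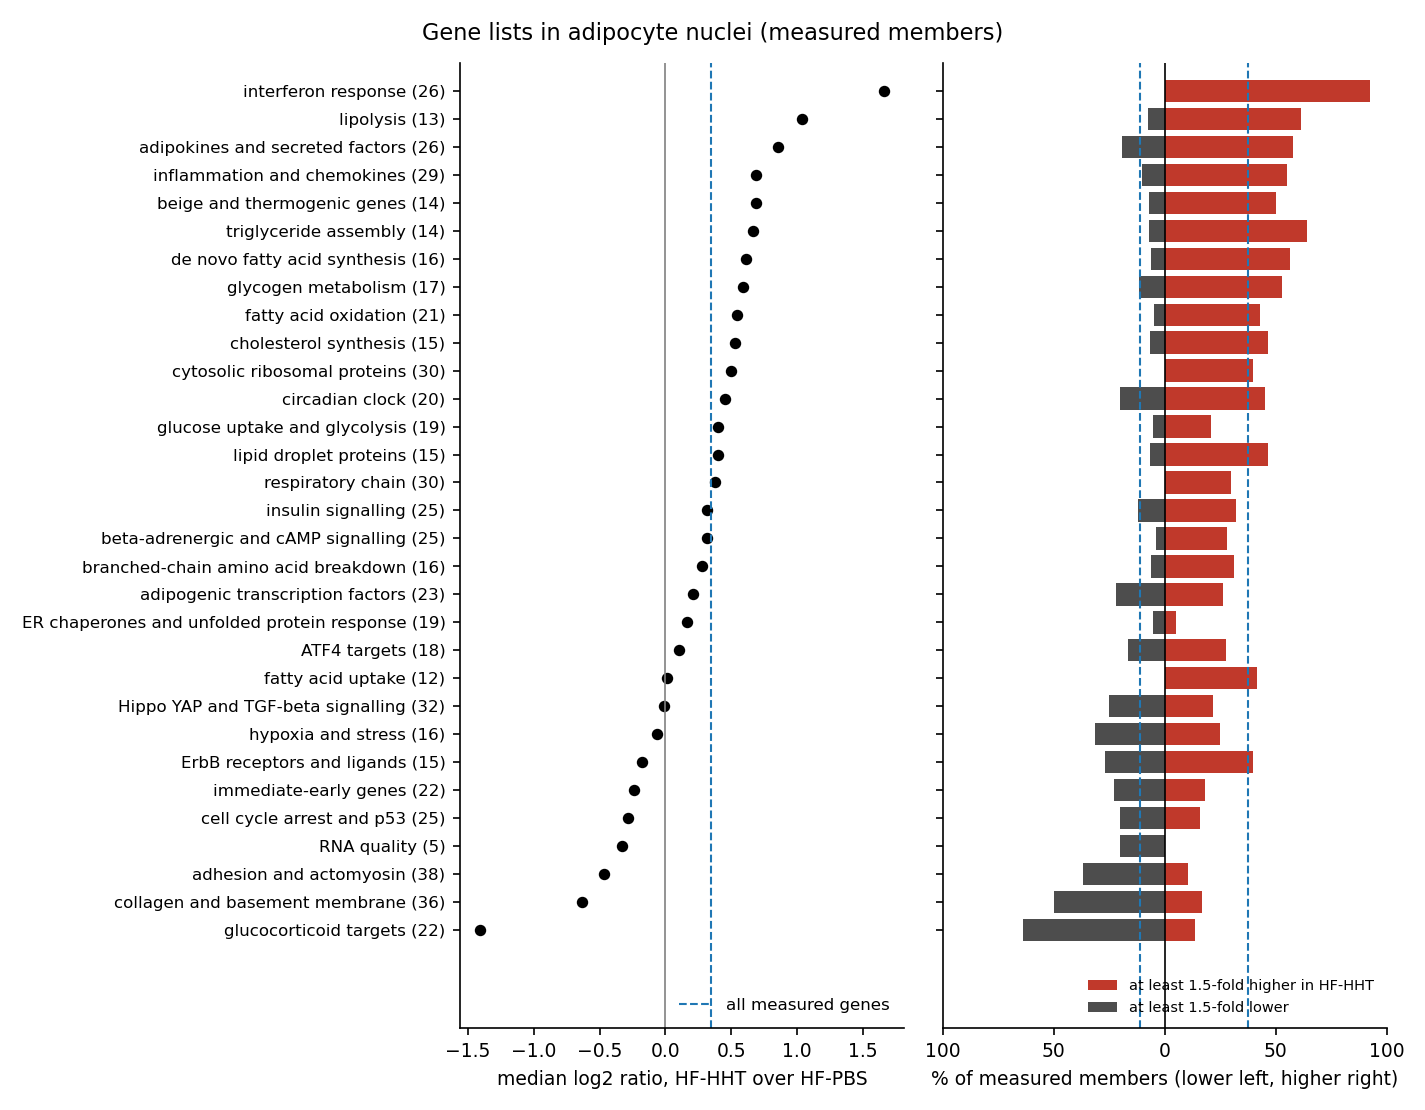
For each gene list (number of measured genes in brackets), the median log2 ratio of HF-HHT over HF-PBS (left) and the percent of genes at least 1.5-fold higher (red, to the right) or lower (grey, to the left). Dashed lines mark all measured genes, at a median of 0.34, 37.5% higher and 11% lower, and the lists run from interferon response (1.66) to glucocorticoid targets (-1.41).

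Lipolysis genes were higher in HF-HHT more often than the background share. Of 13 measured lipolysis genes, 8 were higher and 1 lower (median 1.04). Pnpla2, the first triglyceride lipase, had 91.9 and 189 CPM (log2 ratio 1.04), while G0s2, which inhibits that lipase, had 17.1 and 98.0 CPM (2.52). Lipe, the hormone-sensitive lipase, had 488 and 700 CPM (0.52), which did not reach 1.5-fold, and Lipa, the lysosomal lipase, was the lower gene with 54.6 and 32.6 CPM (-0.74). Without Plin1, which the membership rule used, 7 of 12 were higher and 1 lower (median 0.81). Lipolysis genes were also higher outside the members. In macrophage-marked nuclei 7 of 12 were higher (58.3%, against 28.3% of all genes measured there) and 1 lower, with a median of 0.96. In stromal-marked nuclei 8 of 11 were higher (72.7%, against 27%) and none lower, with a median of 0.99. Whether these medians differ from that of the members was not tested. Of 25 beta-adrenergic and cAMP genes, 7 were higher and 1 lower (median 0.32), below the background share of 37.5% higher, and without the rule genes Adrb3 and Tshr 5 of 23 were higher and 1 lower (0.25).

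For triglyceride assembly the count of genes and their summed level differed. Of 14 assembly genes 9 were higher and 1, Lpin1, was lower (median 0.66), and Dgat2, which makes the final acyl transfer, had 58.5 and 191 CPM (1.71). The list summed to 3581 CPM (HF-PBS) and 4027 CPM (HF-HHT), a log2 ratio of 0.17. Gpam and Acsl1 belong to the membership rule, and without them 7 of 12 genes were higher and 1 lower (median 0.66), while the sum was lower, at 1773 and 1199 CPM (-0.56). Of 16 fatty acid synthesis genes 9 were higher and 1 lower (median 0.62), with Acacb at 180 and 586 CPM (1.70) and Acaca at 192 and 500 CPM (1.38), both acetyl-CoA carboxylases, and Fads1, a fatty acid desaturase, at 9.27 and 4.84 CPM (-0.94). In macrophage-marked nuclei 8 of 13 assembly genes (61.5%) and 8 of 16 synthesis genes (50%) were higher too, against 28.3% of all genes. In stromal-marked nuclei these were 7 of 13 (53.8%) and 8 of 16 (50%), against 27%. Lower were 2 assembly and 0 synthesis genes in macrophage-marked nuclei, and 0 and 1 in stromal-marked nuclei. Of 21 fatty acid oxidation genes 9 were higher and 1 lower (median 0.55), led by Ehhadh, a peroxisomal enzyme, at 68.2 and 298 CPM (2.13). Fatty acid uptake was near 0, with 5 of 12 genes higher, none lower and a median of 0.01. Of 17 glycogen genes 9 were higher and 2 lower (median 0.59), and Pygl, a glycogen phosphorylase, had 28.2 and 172 CPM (2.60).

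Hormone and signalling genes were mixed. Of 26 adipokines and secreted factors 15 were higher and 5 lower (median 0.85), the higher ones including Nrg4 and C2 and the lower ones Lep. In macrophage-marked nuclei 16 of 26 were higher too (61.5%, against 28.3% of all genes) and 1 lower. In stromal-marked nuclei 16 of 25 were higher (64%, against 27%) and 3 lower. Of 25 insulin signalling genes 8 were higher and 3 lower (median 0.32). Pik3r1, the regulatory subunit of PI3-kinase, had 367 and 1115 CPM (1.60), while Foxo3, a transcription factor that insulin signalling restrains, had 655 and 207 CPM (-1.66). Of 15 ErbB receptors and ligands 6 were higher and 4 lower, Errfi1, a feedback inhibitor of EGFR, having 282 and 46.9 CPM (-2.59). Erbb4, the receptor for Nrg4, had 3 UMIs in HF-PBS members and 212 in HF-HHT members (0.409 and 9.0 CPM, 4.46, 2.89 to 6.75), against 0.890 and 42.5 CPM in free RNA.

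Further groups covered transcription factors, energy use and stress. Of 23 adipogenic transcription factors 6 were higher and 5 lower (median 0.21), and the counts were the same without Pparg, a rule gene (0.10). Of 20 circadian clock genes 9 were higher and 4 lower (0.45), with Npas2, a partner of BMAL1, at 25.6 and 5.86 CPM (-2.13), and of 14 beige and thermogenic genes 7 were higher and 1 lower (0.69), with Esrrg, an oestrogen-related receptor, at 35.5 and 143 CPM (2.01). Respiratory chain genes had 9 of 30 higher and none lower (0.38), and glycolysis genes 4 of 19 higher and 1 lower (0.40). Of 19 ER chaperones and unfolded protein response genes 1 was higher and 1 lower (0.16). Hspa5, the ER chaperone BiP, had 44.6 and 44.9 CPM (0.01, -0.17 to 0.19), under the 267 and 410 CPM of free RNA, and its log2 ratio was -1.25 after free RNA was subtracted. Of 25 cell cycle arrest and p53 genes 4 were higher and 5 lower (-0.28), among them Cdkn1a, an inhibitor of cyclin-dependent kinases, at 36.4 and 6.96 CPM (-2.39).

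The remaining lists were as follows. Of 15 lipid droplet protein genes 7 were higher and 1, Cidec, was lower (median 0.40). They summed to 4007 and 4046 CPM (log2 ratio 0.01), and 54.6% of thinned HF-HHT members lay below the HF-PBS median. Without the rule genes Plin1, Plin4 and Cidec, 5 of 12 were higher and none lower (0.32). Of 15 cholesterol synthesis genes 7 were higher and 1 lower (0.53). Branched-chain amino acid breakdown had 5 of 16 genes higher and 1 lower (0.28), ATF4 targets 5 of 18 higher and 3 lower (0.10), immediate-early genes 4 of 22 higher and 5 lower (-0.24), and hypoxia and stress genes 4 of 16 higher and 5 lower (-0.06). Slc7a5, an amino acid transporter that ATF4 induces, had 13.1 and 1.57 CPM (-3.06). Cytosolic ribosomal protein genes had 12 of 30 higher and none lower (0.50), and this median was -3.65 after subtraction of free RNA. Subtracted counts under 3 UMIs entered that median as 3 UMIs, so its size can rest on this floor. Of 5 nuclear RNAs read as a sign of RNA quality 1, Meg3, was lower at 65.2 and 14.4 CPM and none was higher (-0.33). The list medians from 0.01 to 0.28, those of fatty acid uptake, ATF4 targets, ER chaperones, adipogenic transcription factors and branched-chain amino acid breakdown, turned negative with TMM factors, and those of 0.32 also with median-of-ratios size factors.

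Interferon response genes had the highest median. Of 26 measured genes, 24 were higher and none lower in HF-HHT (median 1.66, background 37.5% higher). The interferon-induced GTPases Gbp2, Gbp3 and Gbp7, which like Rsad2 were picked after their values were seen, had 11.6 and 87.7, 2.32 and 22.2, and 12.3 and 88.9 CPM (2.92, 3.26 and 2.86). Their copies resemble each other and reads could be split between them. Rsad2, the antiviral enzyme viperin, had 1.64 and 9.60 CPM (2.55). Ifit2 (-0.29) and H2-K1, a class I antigen-presenting chain (0.28), were within 1.5-fold.

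The same direction appeared in every class of nuclei compared, since 25 of 26 interferon genes were higher in macrophage-marked nuclei (median 1.82) and 24 of 26 in stromal-marked nuclei (1.39). Free RNA of the HF-HHT library held Gbp2 at 244 CPM, against 19.4 CPM in HF-PBS free RNA. The 10% of thinned HF-HHT members with most interferon UMIs held 36.7% of the list's UMIs. These were 128 nuclei with at least 0.267% of UMIs in the list. In HF-PBS the top 10% held 29.1%. For other lists in HF-HHT the top 10% held 37.3% (immediate-early genes), 34.1% (ribosomal proteins) and 17.5% (glucocorticoid targets). The part of low counts in this spread was not tested. Macrophage markers summed to 308 CPM in the 128 nuclei and 254 CPM in the other 1144. The 128 nuclei had a median depth of 17439 UMIs against 15259, and their independent adipocyte markers summed to 14280 against 18882 CPM. Nrg4 was found in 56.2% (47.2 to 65.0) of them against 73.3% (70.6 to 75.8) of the others.

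Promoters of the interferon genes are shown because these genes were higher together in HF-HHT, and the stretches printed hold the core letters of the interferon-stimulated response element, the site that interferon-activated factors bind. The letters GAAA, any 2 bases and GAAA again (TTTC, any 2 bases and TTTC on the other strand) were searched in the 250 bases before each gene start (RefSeq, GRCm38.p6). They occurred in 10 of 21 listed genes with an entry (47.6%) and in 936 of 27025 genes (3.46%). In the following 100-base stretches, written 5' to 3' on the strand of the gene, capitals mark the match, and in Gbp3 they mark 2 overlapping matches.
Gbp3, chr3:142559944-142560043, plus strand: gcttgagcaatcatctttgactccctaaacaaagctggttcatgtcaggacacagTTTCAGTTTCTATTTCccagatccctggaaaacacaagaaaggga
Gbp2, chr3:142620559-142620658, plus strand: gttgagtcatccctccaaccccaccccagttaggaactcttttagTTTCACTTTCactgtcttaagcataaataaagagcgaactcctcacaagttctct
Gbp7, chr3:142530236-142530335, plus strand: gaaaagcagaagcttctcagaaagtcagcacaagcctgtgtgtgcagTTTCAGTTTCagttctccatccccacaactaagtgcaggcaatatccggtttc
Rsad2, chr12:26456518-26456617, minus strand: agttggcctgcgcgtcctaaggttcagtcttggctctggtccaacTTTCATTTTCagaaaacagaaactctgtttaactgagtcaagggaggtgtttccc
A match is a run of letters only, and no binding was measured.

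**Figure D4:**
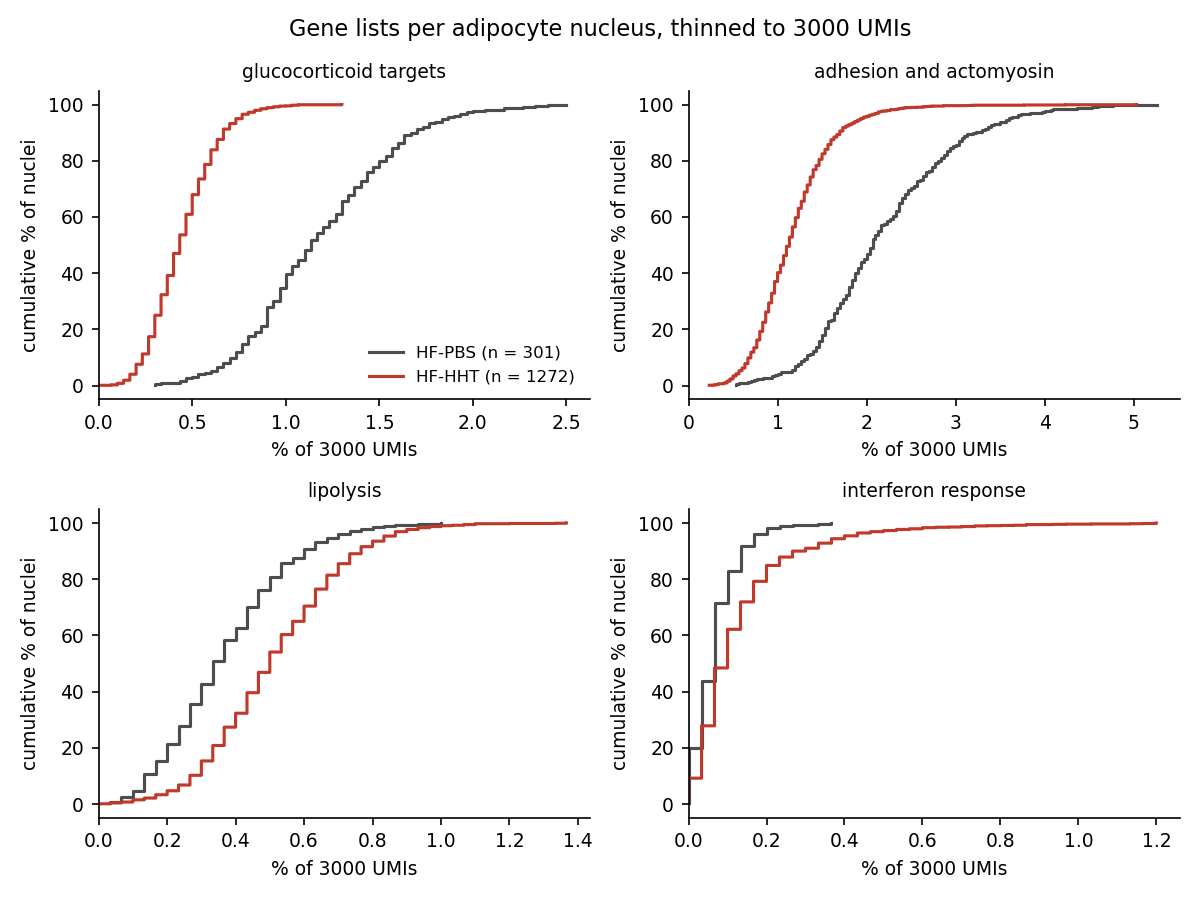
Cumulative percent of adipocyte nuclei (vertical axes) against the percent of 3000 thinned UMIs in 4 gene lists, with 301 HF-PBS nuclei in grey and 1272 HF-HHT nuclei in red. Glucocorticoid targets sit at a median of 1.13% in HF-PBS and 0.433% in HF-HHT. For the interferon list, HF-HHT has the higher median (0.1% against 0.067%) and fewer nuclei without a list UMI (9.20% against 19.9%). Its lower quartile is 0.033% for both libraries, and 28.1% of HF-HHT members lie above the HF-PBS 90th percentile.

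For inflammation genes the median and the sum differed in sign. Of 29 measured genes 16 were higher and 3 lower (median 0.69), but the summed list was slightly lower (log2 ratio -0.20). Kitl, the ligand of the KIT receptor, had 341 and 62.4 CPM (-2.45). Cxcl10, an interferon-induced chemokine, had 3 UMIs in HF-PBS members and 339 in HF-HHT members (log2 ratio 5.14, 3.58 to 7.42), below its free RNA level of 124 CPM in HF-HHT.

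Nuclei with and without an Nrg4 UMI were then compared within each library. In HF-PBS, 122 members with Nrg4 (median depth 24430 UMIs) stood against 184 without (18030), and in HF-HHT 1180 with (15630) against 149 without (8900). A nucleus without a UMI can express the gene, and the groups differ in depth, so the split also sorts nuclei by depth. The groups differed in adipocyte markers as well. Those outside the rule summed to 13418 CPM with and 12515 CPM without Nrg4 in HF-PBS, and to 18650 and 14399 CPM in HF-HHT. The part of adipocyte markers in the split was not tested. Macrophage markers summed to 468 CPM with and 548 CPM without Nrg4 in HF-PBS, and to 266 and 236 CPM in HF-HHT, and stromal markers to 621 and 859, then 343 and 520 CPM. The part of these markers in the split was not tested beyond the values given without nuclei that carry them. Of 10730 genes measured in HF-PBS, 797 (7.43%) were higher and 791 (7.37%) lower in nuclei with Nrg4. Of 14533 in HF-HHT, 2320 (16%) were higher and 1674 (11.5%) lower.

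Part of the 20 genes named for this split is given, not chosen by size, with Nrg4 read from all UMIs and then after thinning. Pnpla3, a triglyceride lipase family gene, had 46.9 CPM without and 94.4 CPM with Nrg4 in HF-PBS, and 16.6 and 82.6 CPM in HF-HHT (log2 ratios 1.01 and 2.32). Kcnj15, a potassium channel gene, had 31.0 and 74.6, then 17.1 and 54.1 CPM (1.26 and 1.66), and Nup210, a nuclear pore protein gene, had 19.5 and 41.4, then 9.71 and 31.6 CPM (1.09 and 1.70). With Nrg4 detected after thinning, which evens out depth, these log2 ratios were 0.18 and 0.73 for Pnpla3, 0.57 and 0.01 for Kcnj15, and -0.020 and 0.60 for Nup210. Only the HF-HHT ratios of Pnpla3 and Nup210 then reached 1.5-fold. Adamts1, a matrix protease, was lower with Nrg4, at 74.9 and 33.2, then 56.5 and 22.5 CPM (-1.17 and -1.33), and so was Galnt16, at 26.9 and 11.7, then 21.7 and 3.85 CPM (-1.21 and -2.49). Chl1, a cell adhesion gene, was at 48.5 and 18.1, then 114 and 24.7 CPM, but its HF-PBS log2 ratio moved from -1.42 to 0.11 without nuclei carrying other cells' markers. Slco2a1, a prostaglandin transporter (-1.26 and -3.5), had 21.4% of its HF-HHT UMIs in 1 nucleus. After thinning, Adamts1 (-0.89 and -0.76), Galnt16 (-1.83 and -2.31) and Chl1 (-1.51 and -1.87) stayed lower with Nrg4, while Slco2a1 had 0.19 in HF-PBS and -1.83 in HF-HHT. Among the other genes named, Sptlc3 had 1.64 and 3.11, Themis, a T cell marker, 2.38 and 1.03, and Hmga2 -3.09 and -1.40 with all UMIs. With Nrg4 detected after thinning these were 0.36 and 1.25, 1.79 and 0.41, and -1.72 and 0.18.

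Interferon and immediate-early genes were often lower in HF-HHT nuclei with Nrg4. In HF-HHT, 13 of 26 interferon genes were lower and 1 higher (median -0.60, background 11.5% lower), and in HF-PBS 3 of 16 were lower and none higher (-0.24, background 7.37% lower). In HF-HHT nuclei of 5000 to 20000 UMIs, 686 with and 67 without Nrg4, 14 of 24 were lower and none higher (-0.88, background 12.3% lower). Gbp2 had 249 CPM without and 74.8 CPM with Nrg4 in HF-HHT. When Nrg4 was detected after thinning to 3000 UMIs, 15 of 26 interferon genes were lower and none higher in HF-HHT (median -0.72, background 6.42% lower). In HF-PBS 5 of 16 were then higher and 1 lower (median 0.00, background 9.42% higher and 13.5% lower), so that the HF-PBS direction rested on the unthinned split. Of 22 immediate-early genes 13 were lower and none higher in HF-HHT (median -0.77), and 4 were lower once Nrg4 was detected after thinning (median -0.30, background 6.42% lower). In HF-PBS 2 of 17 were lower and 1 higher (median -0.17). Among collagen and basement membrane genes 14 of 36 were lower in HF-HHT (background 11.5%) and 10 of 32 in HF-PBS (background 7.37%). Without nuclei carrying other cells' markers, only 2 of 29 were lower in HF-PBS (background 5.87%). Triglyceride assembly genes lay on the higher side in HF-HHT, with 5 of 14 higher and none lower (median 0.42, background 16% higher). With Nrg4 detected after thinning 2 of 14 were higher (background 8.29% higher).

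The difference between libraries was also taken among nuclei with Nrg4 and among those without. With Nrg4, 5327 (36.4%) of 14631 genes were higher in HF-HHT and 1612 (11%) lower, and without it 2946 (28.2%) of 10462 were higher and 1359 (13%) lower. Fkbp5 had log2 ratios of -2.92 and -2.61 with and without Nrg4, Mertk -3.34 and -3.39, Igf1 3.51 and 2.90, and Art3 3.49 and 3.15. The median of the glucocorticoid targets was -1.35 and -1.39, and that of the interferon genes 1.66 and 2.31. Nuclei without a detected Nrg4 UMI therefore differed between the libraries in the same direction for each of these genes and lists. Fkbp5, Mertk, Igf1 and Art3 are among the genes the study marked on these samples. Medians changed sign for immediate-early genes (-0.21 with and 0.34 without Nrg4), hypoxia and stress (-0.32 and 0.29) and the circadian clock (0.51 and -0.07). They also did for ErbB genes (0.07 and -0.49), Hippo, YAP and TGF-beta genes (-0.11 and 0.13) and fatty acid uptake (0.21 and -0.08). The other list medians kept their sign.

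**Figure D5:**
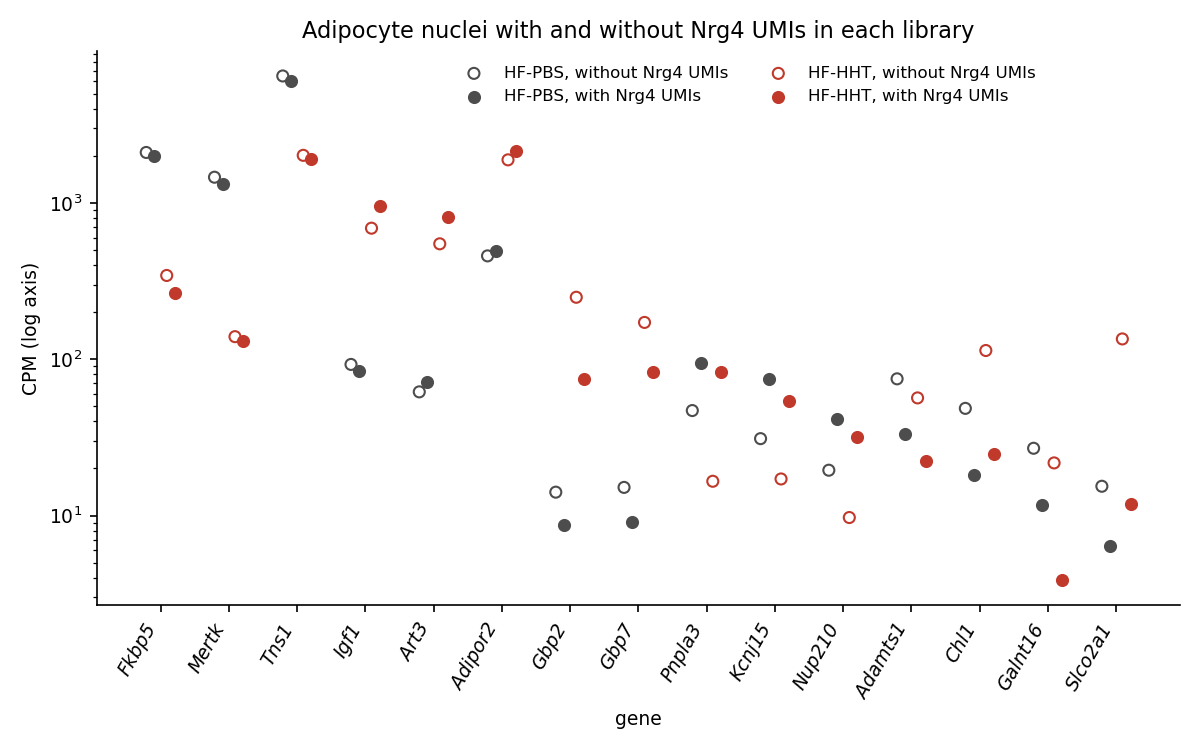
Level (CPM, log axis) of 15 genes in adipocyte nuclei with (filled) and without (open) an Nrg4 UMI, for HF-PBS (grey) and HF-HHT (red). For Fkbp5 to Adipor2 the points part by library, while Pnpla3, Kcnj15 and Nup210 lie higher, and Adamts1, Chl1, Galnt16 and Slco2a1 lower, in nuclei with Nrg4 in both libraries when Nrg4 is read from all UMIs, as plotted.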

How the data were processed

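Nuclei of pooled epididymal fat were sequenced by the study with 10x 3' v3.1 chemistry. The UMI counts per gene and barcode were deposited by the authors as raw matrices, made with Cell Ranger (version 5.0.0 per the submitters' processing notes). The sources used here do not state whether intronic reads entered the counts. From them, adipocyte nuclei were selected by the membership rule, UMIs were summed per library and divided by the members' total (CPM), and the ratio of the sums was given an exact conditional interval. Genes with under 20 UMIs over both libraries were not compared, and a sum of 0 was set to 3 UMIs in ratios. Shares of nuclei with a UMI were compared after thinning to 3000 UMIs. No doublets were removed, and Scrublet (scanpy 1.11.5) scores served as an alternative. It left out the highest scores, set at 6.89% of filtered HF-PBS and 6.29% of filtered HF-HHT barcodes. Among these were 45 HF-PBS members (14.7%) and 150 HF-HHT members (11.3%), so members were flagged more often than filtered barcodes as a whole. The calculations used Python 3.11.15, numpy 2.4.6, scipy 1.17.1, pandas 2.3.3, R 4.3.3, edgeR 4.0.16 (TMM) and DESeq2 1.42.0 (size factors only). They were tested on simulated data. Named genes were the 12 highest and 12 lowest ratios (at least 50 UMIs in the higher library, 10 in the other, and 2 times the CPM of free RNA), 6 by share each way, 10 by the Nrg4 split each way, 2 extremes each way per list, the rule genes, markers outside the rule, Nrg4, Hspa5 and the study's marked genes. The members, lists and tests were chosen with earlier results of these data known. Predicted genes were not named. Some genes of the lists are not reported here by name.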

Additional observations from a re-analysis of the deposited data

How the results depend on the processing

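With 1 library per condition, no result could be checked against replicates, and depth, mice and condition cannot be told apart. No paired analysis was possible because each group has 1 library. The share of adipocyte nuclei was 4.76-fold higher in HF-HHT, 7.06-fold with a marker share of at least 3%, 7.10-fold without barcodes above the 95th percentile of UMIs and genes, and 5.83-fold, an alternative chosen after seeing the data, without members carrying at least 0.1% of other cells' markers. The count of lower genes was 2650 with TMM, 2822 with median-of-ratios factors and 6351 with a minimum of 1 UMI, and that of higher genes was 3523 in thinned nuclei. Without thinning, Nrg4 was found in 39.9% and 88.8% of members, and thinned to 6000 UMIs in 21% and 83.0%. Splitting by Nrg4 after thinning gave 2463 called genes in HF-PBS (1588 as reported) and 2135 in HF-HHT (3994). Without members carrying other cells' markers, the log2 ratio of HF-HHT over HF-PBS turned to 0.33 for Col14a1, 0.93 for Grik4 and 0.15 for Themis. The ratio of nuclei with over without Nrg4 in HF-PBS turned to 0.11 for Chl1 and 0.64 for Gbp2 (-0.69 with all UMIs and members) without members carrying other cells' markers, to 0.63 for Gbp2 with a marker share of at least 3%, and to -0.020 for Nup210, 0.19 for Slco2a1 and 0.77 for Gbp2 with Nrg4 detected after thinning. After subtraction of free RNA, the HF-HHT over HF-PBS log2 ratio of Rps2 was -1.54, and the median of the ribosomal proteins -3.65, with subtracted counts under 3 UMIs set to 3. The cause was not tested. Over the alternatives, 79 of 92 counts and shares stayed within 1.5-fold or the interval of the reported value. The HF-HHT over HF-PBS ratios of named genes and lists were repeated under only part of the alternatives. These were TMM, median-of-ratios factors, a total without rule genes, mean CPM over nuclei, thinning and free RNA subtraction. Removal of members carrying other cells' markers was the only changed membership. The first 3 shift all ratios alike by under 1.5-fold, so they could move none past that limit. Of these ratios, 1216 of 1269 of named genes and 230 of 231 list medians stayed within 1.5-fold. Among ratios past 1.5-fold only Col14a1, Grik4, Themis and Rps2 turned direction. Of 480 alternative ratios of the 20 genes named for the Nrg4 split, 23 turned direction and 27 were under 1.5-fold, 6 and 9 of them with Nrg4 detected after thinning.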
